A study of Caenorhabditis elegans with 2 samples.

Results

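The 10 genes described here build, anchor or remove the apical extracellular matrix of Caenorhabditis elegans, and none of them is a collagen gene. They were chosen by name as matrix and moulting genes, with earlier results of these data known, so the counts set beside those of all genes describe these genes and are no independent evidence about the class. They are lpr-3, let-653, noah-1, noah-2, fbn-1, dpy-6, nekl-2, nekl-3, nas-36 and nas-37, out of 19973 protein-coding genes on the nuclear chromosomes. Binding of the epidermal GATA factor ELT-3 was mapped by ChIP-seq in whole L3 larvae of mixed sex. Both biological replicates were of strain OP75, genotype unc-119(ed3) III; wgIs75, so every animal carried the unc-119(ed3) mutation and the eGFP-elt-3 transgene wgIs75. There is 1 group and no other condition, so the results are positions and ranks within lists and not differences between treatments. The promoter and copy number of the transgene, the age of the larvae in hours and the step of the moulting cycle at harvest are not stated in the labels. Because whole animals were used, the cells in which a site was bound cannot be told apart.

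The C. elegans cuticle is rebuilt at each larval stage. Before each new collagen cuticle is laid down, epidermal and tube-lining cells secrete a transient precuticle made largely of lipocalins, zona pellucida (ZP) domain proteins and other glycoproteins, and at the end of the stage the old cuticle is loosened by proteases and shed. ELT-3 is expressed in the epidermis that secretes this matrix. GATA factors bind variants of the word WGATAR, in which W is A or T and R is A or G, and it was searched here on either strand. The words searched were thus AGATAA, with AGATAG as its variant in the last letter, and similarly TGATAA, with TGATAG as its variant in the last letter.

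The sequences at the summits of 3 of the genes carry the comparison of strength and motif and are printed for that reason. lpr-3 and dpy-6 were the genes with a region in the list that passed the irreproducible discovery rate (IDR) filter, and noah-2 had one of the 1000 strongest regions of the pooled list with no WGATAR word anywhere in it. Each line gives 50 bp on either side of the summit of the strongest pooled region, 5′ to 3′ on the strand of the gene, on WBcel235, whose chromosome lengths match ce11. Capitals mark matches, on either strand, to WGATAR, to GACGCA and its overlapping relative ACGCAG, to the purine repeat word GAGAGA, to the E-box word CACGTG, and to the nuclear receptor word AGGTCA.
lpr-3 (chrX:11057178-11057278, plus strand): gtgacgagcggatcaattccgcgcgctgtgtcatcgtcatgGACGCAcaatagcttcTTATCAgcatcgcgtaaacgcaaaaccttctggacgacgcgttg
dpy-6 (chrX:8455964-8456064, minus strand): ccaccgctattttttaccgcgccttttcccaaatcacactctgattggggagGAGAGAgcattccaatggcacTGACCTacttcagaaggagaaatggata
noah-2 (chrIV:14089849-14089949, plus strand): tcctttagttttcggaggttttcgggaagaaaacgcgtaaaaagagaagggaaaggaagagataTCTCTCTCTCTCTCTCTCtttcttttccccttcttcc

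The lpr-3 window holds a TGATAA word, read as TTATCA on the printed strand, centred 9.5 bp from the summit, and a GACGCA word before it. The dpy-6 window holds no WGATAR word, but has one GAGAGA word and one AGGTCA word, the latter read as TGACCT. The noah-2 window holds an unbroken run of TC dinucleotides in which GAGAGA was matched 7 times on the opposite strand, the matches overlapping each other. GC content was 53.5% in the lpr-3 window, 47.5% in that of dpy-6 and 42.6% in that of noah-2, beside a median of 41.6% over windows of the same size at the 280 IDR summits.

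Regions came from 4 lists. Each region was 356 bp wide and was placed by its summit, and a region was given to a gene when the summit lay between 2000 bp upstream of the 5′ end and the 3′ end. The IDR list held 280 regions, with the authors' signal from 46.8 to 148. The pooled list held 21761 regions of peaks and background together, with signals from 15.1 to 148, and its 280 strongest were the IDR regions. Each replicate list held exactly 30000 regions, an equal length for which the labels and headers give no reason and which may be a fixed limit, so ranks far down these lists may be background and matches to them depend on that length. The replicate lists had signals up to 95.2 in replicate 1 and up to 53.9 in replicate 2. A −log10 q of 2 or more was given to 211 pooled regions, to 613 regions of replicate 1 and to 0 regions of replicate 2, where the highest value was 1.59. Read depth is not stated in the labels or headers, so no counting error can be given for a signal. Ranks run from 1 for the strongest region of a list.

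Of the 10 genes, 2 had an IDR summit, lpr-3 and dpy-6, where 1.36% of all genes did. Among the 1000 strongest pooled regions, 6 of the 10 genes had a summit, namely dpy-6, lpr-3, nas-36, nekl-2, let-653 and noah-2, where the share of all genes was 4.50%. All 10 had at least one pooled region, but so did 60.4% of all genes, so that count is read no further. The replicates alone gave fewer genes among their 1000 strongest regions: 2 in replicate 1 (lpr-3 and dpy-6, against 4.61% of all genes) and 4 in replicate 2 (those and nekl-2 and nas-36, against 4.66%). In replicate 1, 1 gene (lpr-3) had one of the 280 strongest regions, against 1.33% of all genes. In replicate 2, 3 genes did (lpr-3, dpy-6 and nekl-2), against 1.34%.

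Longer genes have more room for a region, and the windows of the 10 genes were longer than most, with a median of 6.52 kb against 4.03 kb. Among the 3747 genes with windows of at least that median length, 2.51% had an IDR summit, 8.70% had one of the 1000 strongest pooled summits and 79.5% had any pooled summit. With the window cut to the 1000 bp upstream of the 5′ end, gene bodies left out, 4 of the 10 genes (40.0%) had one of the 1000 strongest pooled summits, against 365 of 19973 genes (1.83%). The 4 were lpr-3, dpy-6, nekl-2 and nas-36. The share of genes with one of the 1000 strongest summits was taken only for the chromosomes that hold these genes. It was 7.64% on I, 5.34% on III, 3.60% on IV and 5.86% on X. The share over all genes also counts chromosomes II and V, which hold none of these genes.

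**Figure D1:**
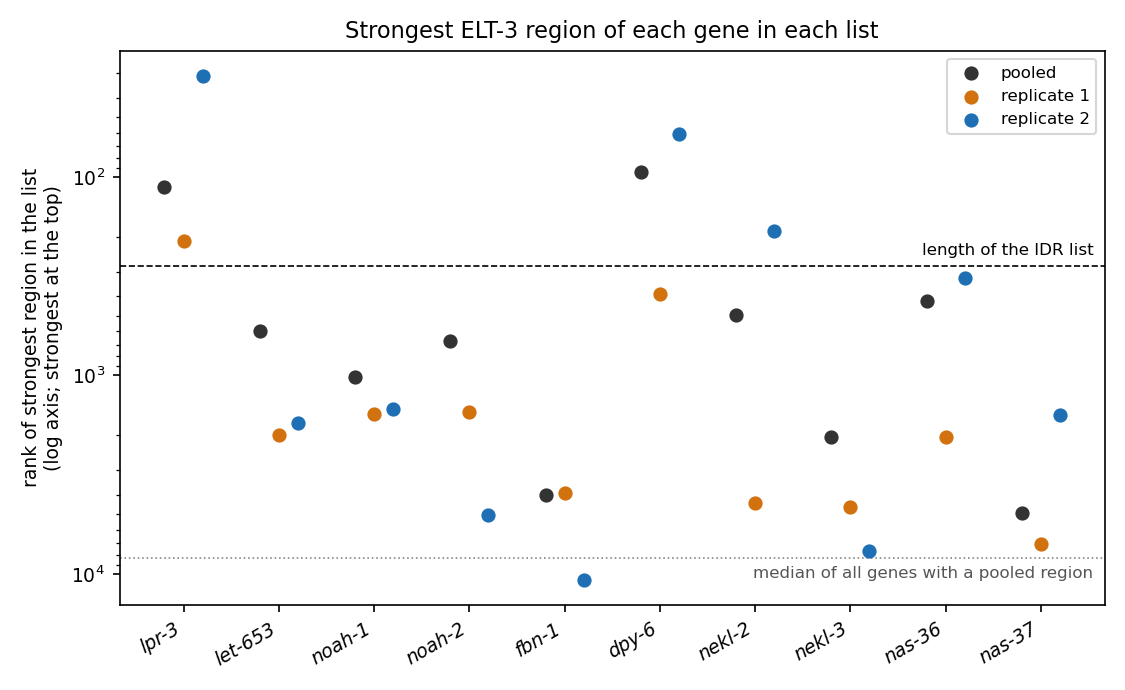
Rank of the strongest region of each gene in the pooled list and in each replicate list (y axis, log scale, strongest at the top). The dashed line marks the 280 regions of the IDR list and the dotted line the median rank of 8343 over all 12068 genes with a pooled region; lpr-3 and dpy-6 lie above the dashed line in the pooled list and fbn-1, nekl-3 and nas-37 lie lowest in it.

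The order of the genes by pooled signal was dpy-6 (65.1), lpr-3 (62.3), nas-36 (41.8), nekl-2 (40.0), let-653 (37.6), noah-2 (36.5), noah-1 (32.8), nekl-3 (27.9), fbn-1 (24.1) and nas-37 (23.1). The median of these strongest signals was 37.0, against 20.3 over all 12068 genes with a pooled region. Each replicate alone gave a higher median for the 10 genes as well, 16.0 against 10.1 over 14317 genes in replicate 1 and 18.7 against 12.6 over 14485 genes in replicate 2. These medians take the strongest region of each window, and no median was taken over genes with windows of like length. The gap in the order fell between lpr-3 and nas-36, whose signal of 41.8 was below the lowest IDR signal of 46.8. At the rank of 1000 the neighbours were noah-2, inside at rank 670, and noah-1, outside at rank 1023. The −log10 q of the strongest pooled region was 0.767 at noah-2, 0.526 at noah-1, 0.248 at nekl-3, 0.127 at fbn-1 and 0.101 at nas-37. By the deposited q-value these regions are thus not set apart from background. Both replicates put lpr-3 above dpy-6, with signals of 32.0 and 26.0 in replicate 1 and 36.9 and 33.3 in replicate 2. Among the other 8 genes the replicates did not give the same order. noah-2 ranked 1528 in replicate 1 and 5065 in replicate 2, nekl-2 ranked 4410 and 187, and nas-37 ranked 7078 and 1577.

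**Figure D2:**
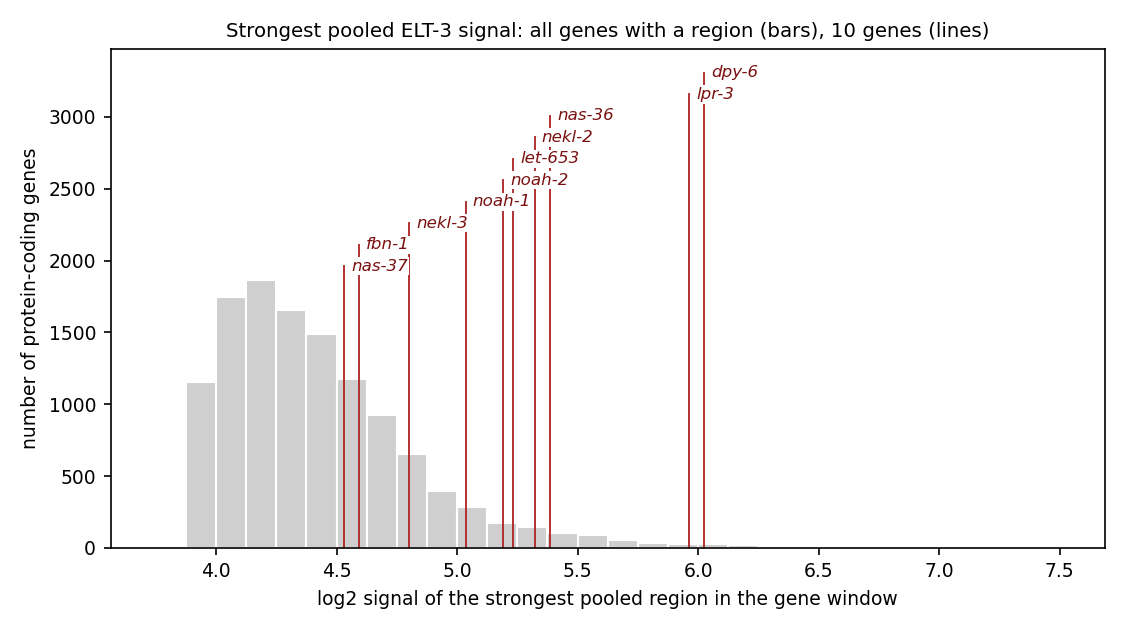
Strongest pooled signal on a log2 scale (x axis) for all 12068 protein-coding genes with a pooled region (grey bars, number of genes on the y axis) and for each of the 10 genes (red lines, whose heights differ only to separate the names). The 2 genes with IDR regions stand at 62.3 and 65.1, and the lowest, nas-37 at 23.1, is above the median of 20.3.

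The lipocalin gene lpr-3 (WBGene00012261, chromosome X, plus strand, 11057401 to 11059793) encodes a secreted precuticle protein that keeps narrow epithelial tubes and the body surface intact. Its IDR region, X 11057050 to 11057405, ranked 112 in the IDR and pooled lists, with a signal of 62.3 and a −log10 q of 2.45. The summit lay 173 bp upstream of the gene. Replicate 1 placed its summit 163 bp upstream at rank 210 (signal 32.0, −log10 q 2.83), and replicate 2 placed its own 211 bp upstream at rank 31 (signal 36.9, −log10 q 1.09). The same TGATAA word lay 0.5 bp from the summit of replicate 1 and 47.5 bp from that of replicate 2, so all 3 summits lay within 50 bp of the same word. The other 3 pooled regions of lpr-3 were in coding exons, at 827, 1052 and 1266 bp downstream of the 5′ end, with ranks of 15979, 14139 and 18737, and none of them was matched within 100 bp in both replicates.

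lpr-3 is the first of 4 lipocalin-related genes that follow each other on the plus strand of chromosome X, with gaps of 200, 251 and 586 bp between lpr-3, lpr-6, lpr-5 and lpr-4. The neighbours are described because the genes are adjacent, and they were chosen after their values were seen. Each of the 4 genes had one of the 1000 strongest pooled summits a short way upstream of its 5′ end: lpr-3 at rank 112, lpr-5 at rank 352 (signal 44.0, 84 bp upstream), lpr-4 at rank 485 (40.4, 256 bp upstream) and lpr-6 at rank 705 (35.9, 77 bp upstream). A further region of rank 630 (37.1) lay inside lpr-6, 1002 bp upstream of lpr-5. The replicates differed along the cluster. The region upstream of lpr-4 ranked 234 in replicate 2 and 4865 in replicate 1, whose summit was 353 bp upstream, and the region inside lpr-6 ranked 457 in replicate 1 and 9092 in replicate 2. Those upstream of lpr-5 ranked 810 in replicate 1 and 588 in replicate 2, and those upstream of lpr-6 ranked 1994 and 1092. A WGATAR word lay within 50 bp of the pooled summit at lpr-3, at lpr-4 and inside lpr-6, and not at the summits just upstream of lpr-5 and lpr-6.

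**Figure D3:**
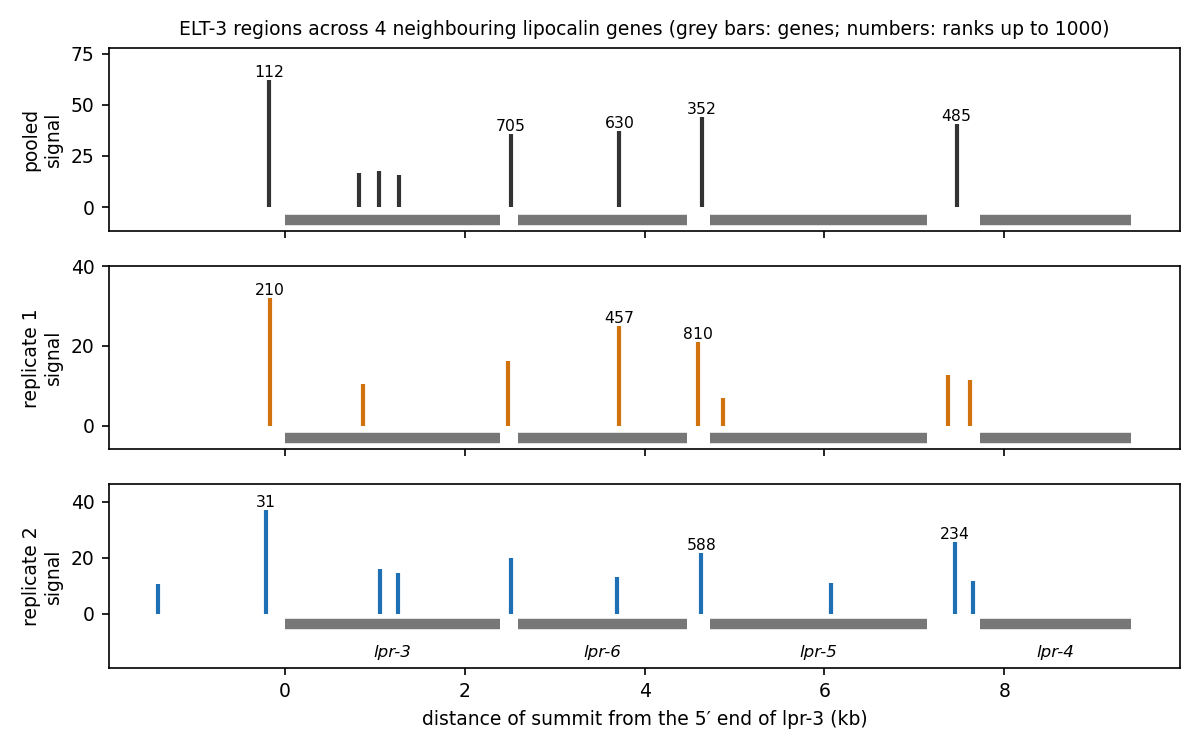
Signal of each region (vertical lines, y axis in the authors' signal units, one panel per list with its own scale) by distance of its summit from the 5′ end of lpr-3 in kb. Grey bars are the genes lpr-3, lpr-6, lpr-5 and lpr-4, and printed numbers are ranks up to 1000; a pooled region of rank 705 or better stands just before each gene.

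let-653, noah-1 and noah-2 encode ZP-domain proteins, which polymerise into matrix fibrils. let-653 (WBGene00002827, IV, plus strand, 11885613 to 11891082) acts in the lining of the excretory duct and other tubes. Its strongest pooled region, IV 11883574 to 11883929, ranked 601 with a signal of 37.6 and a −log10 q of 0.841. This summit was 1861 bp upstream, in the 3′ UTR of the neighbouring gene cutl-27, itself a ZP-domain gene. Replicate 1 had the same summit position at rank 1991 (signal 16.1) and replicate 2 had one 1875 bp upstream at rank 1741 (signal 18.3), so the position was shared and the rank in each replicate was lower than in the pooled list. A weaker pooled region 963 bp upstream ranked 7235, and one in an intron 540 bp downstream ranked 4455.

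noah-1 (WBGene00016422, chromosome I, minus strand, 5874416 to 5878958) and noah-2 (WBGene00009926, IV, plus strand, 14091254 to 14096626) encode ZP proteins of the apical matrix that holds the epidermis together as the embryo elongates. The strongest pooled region of noah-1 ranked 1023 (signal 32.8) and lay 4028 bp downstream of the 5′ end, in the 3′ UTR, nearer to the 5′ end of cdc-7 at 2756 bp. Its replicate summits there ranked 11573 and 6264. The second pooled region of noah-1 ranked 1246 (31.3), 586 bp upstream, with a WGATAR word 26.5 bp from the summit. There the replicates parted: replicate 2 had a summit 551 bp upstream at rank 1480, with 2 WGATAR words in the window, and replicate 1 had its own at 785 bp upstream at rank 1573, with none. At noah-2 the region of rank 670 (36.5) had its summit 1355 bp upstream, just before the TC run printed above. Its replicate summits lay on opposite sides of that point, 1280 bp upstream in replicate 1 (signal 17.2) and 1408 bp upstream in replicate 2 (14.8). An intronic region 848 bp downstream, rank 5577, had a WGATAR word 3.5 bp from its summit.

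fbn-1 (WBGene00022816, III, plus strand, 7625386 to 7641078) encodes a large fibrillin-like protein that anchors the epidermis to the matrix, and it had the longest of the windows. It had 5 pooled regions, all inside the gene and none upstream, at ranks of 4028 (signal 24.1), 4774 (23.3), 11903, 18528 and 18661. Of these, the summit of rank 4774, in an intron 11530 bp downstream, was held by both replicates within 2 bp, at rank 3923 in replicate 1 and 22436 in replicate 2. Near the 5′ end the relaxed lists had only a region of rank 27436 in replicate 1, 186 bp upstream, and one of rank 24225 in replicate 2, 119 bp downstream. Per kb of window fbn-1 had 0.283 pooled regions, below the median of 0.410 for the 10 genes and above the median of 0.195 for all genes.

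dpy-6 (WBGene00001068, X, minus strand, 8450381 to 8455640) encodes a mucin-like protein whose loss gives short, stout worms. Its IDR region, X 8455836 to 8456191, had the highest pooled signal among the 10 genes, 65.1, at rank 95 with a −log10 q of 2.45. The summit lay 374 bp upstream. Both replicates placed it close by, 384 bp upstream in replicate 1 at rank 391 (signal 26.0, −log10 q 2.42) and 375 bp upstream in replicate 2 at rank 61 (33.3, −log10 q 1.38). The 3 summits therefore fell within 10 bp of the pooled one. No WGATAR word lay within 50 bp, and the nearest of the 3 in the 356 bp region was centred 65.5 bp away. An intronic region 1137 bp downstream ranked 1628 (signal 29.3) and was matched within 2 bp in both replicates, at ranks of 5154 and 9351.

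**Figure D4:**
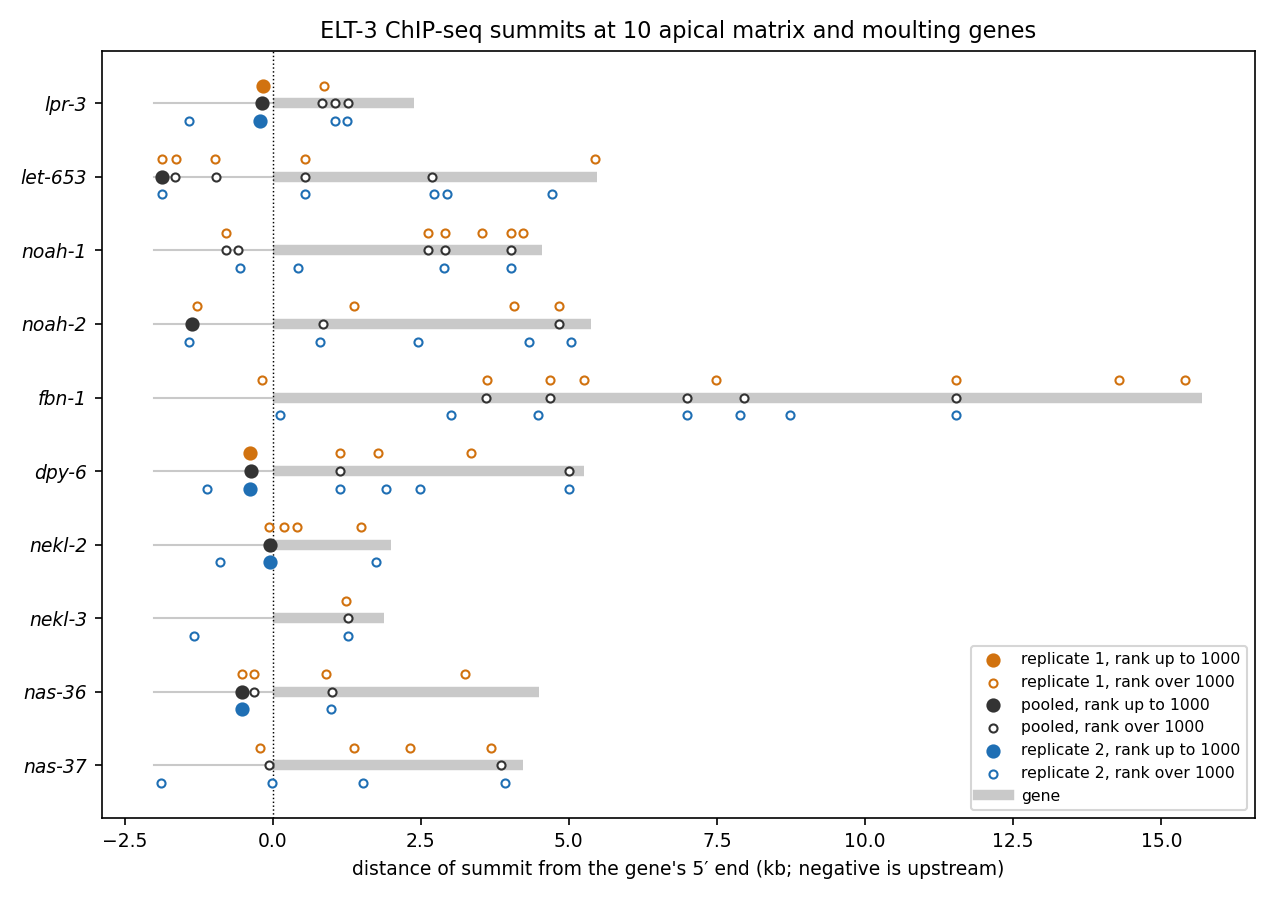
Distance of every summit from the 5′ end of its gene in kb (x axis, negative is upstream) for the 10 genes (y axis), in replicate 1, the pooled list and replicate 2. Filled points are regions ranked up to 1000 in their list and open points weaker ones; all 6 filled pooled points lie upstream of the gene, and fbn-1, nekl-3, noah-1 and nas-37 have none.

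The NIMA-related kinases NEKL-2 and NEKL-3 are needed in the epidermis for endocytosis and for shedding the old cuticle. nekl-2 (WBGene00022631, chromosome I, plus strand, 6663161 to 6665160) had a single pooled region, I 6662940 to 6663295, at rank 494 (signal 40.0, −log10 q 1.04), with its summit 43 bp upstream. Replicate 2 ranked the same position 187 (26.5), and in replicate 1 a summit 62 bp upstream ranked 4410 (13.0). nekl-3 (WBGene00008956, X, minus strand, 12389594 to 12391480) also had a single pooled region, at rank 2052 (signal 27.9), in a coding exon 1279 bp downstream of the 5′ end. Replicate 1 ranked it 4596, with a summit at 1241 bp, and replicate 2 ranked it 7633. The pooled list had no region upstream of nekl-3. The 2 kinase genes thus differ in where their single pooled region lies, and no test of that difference is possible with 1 region each.

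NAS-36 and NAS-37 are astacin metalloproteases of the moult, which act on the old cuticle. nas-36 (WBGene00003552, chromosome I, plus strand, 7527224 to 7531715) had its strongest pooled region, I 7526525 to 7526880, at rank 424 (signal 41.8, −log10 q 1.16), 521 bp upstream in the 3′ UTR of goa-1, a G-protein alpha subunit gene. Replicate 2 had the same summit at rank 324 (24.0), and replicate 1 had one 526 bp upstream at rank 2043 (15.9). Pooled regions were dense around this gene, with 80 within 100 kb of its 5′ end outside its window, a number above that of 97.5% of genes. A weaker region in a coding exon 998 bp downstream, rank 6953 (−log10 q 0.0639), held 3 WGATAR words within 50 bp of its summit. The window 500 bp to the right held 3 as well, so the words do not mark out the summit. nas-37 (WBGene00003553, X, minus strand, 9944844 to 9949063) had the weakest of the strongest regions, rank 4932 (23.1), in a coding exon 3856 bp downstream. Replicate 2 ranked a summit 67 bp from it 1577 (18.6), and replicate 1 had none within 100 bp. Its second pooled region, rank 15453, was 70 bp upstream with a WGATAR word 28.5 bp from the summit.

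The density of pooled regions near the other genes was less extreme. The number within 100 kb outside the window ran from 30 at noah-2, above 18.3% of genes, to 61 at nekl-2, above 89.9%, and the median over the 10 genes was 51.5 against 42 over all genes. At lpr-3 and dpy-6 it was 50 and 59, where the median for genes on X was 51. The part of this density in the ranks was not tested. For the other 8 genes the nearest IDR region lay between 28346 bp from the 5′ end at nekl-3 and 566963 bp at noah-1. No such distance was taken over all genes.

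Strength and position went together in the pooled list at a cut of 1000 ranks, which leaves only 6 regions on the strong side. Just past that cut, the regions of rank 1023 at noah-1 and 1628 at dpy-6 lay inside the gene, and that of rank 1246 at noah-1 lay upstream. All 6 of the genes' regions ranked up to 1000 were upstream of the 5′ end, where over all genes 592 of 1045 gene and region pairs (56.7%) were. Of the 26 weaker regions, 6 were upstream (23.1%), against 40.2% of 21754 pairs over all genes. In all, 12 of the 32 pooled summits were upstream, 12 were in coding exons, 6 in introns and 2 in 3′ UTRs. These features are those of the gene itself, so upstream summits in the 3′ UTR of a neighbour, as at let-653 and nas-36, count as upstream. The share in coding exons was 37.5%, where 20.0% of all pooled summits lay in a coding exon of any gene, and in the replicates it was 31.0% against 18.9% and 45.2% against 23.3%. No IDR summit of the genes lay in a coding exon, and 2.50% of all IDR summits did. Windows that run through whole genes hold more coding sequence than the genome does, so the exon shares of the genes and of the lists are not measured over the same kind of sequence.

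The replicates held many of these regions, but not all of them. Of the 32 pooled regions, 13 (40.6%, 95% Wilson interval 25.5 to 57.7) had a summit within 100 bp in both replicate lists, against 25.1% of all pooled regions. Replicate 1 matched 22 (68.8% against 53.3%) and replicate 2 matched 23 (71.9% against 62.0%), and 0 were matched by neither, where 9.87% of all pooled regions were. All 6 of the regions ranked up to 1000 were matched in both. The same share over all of the 1000 strongest regions is not given here, so that count is read no further. The intervals cover counting error only, and regions of the same gene are not independent.

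The share of these genes' summits with WGATAR was no larger than that over the pooled list. Within 50 bp of the summit it was found in 6 of 32 pooled regions (18.8%, 8.89 to 35.3), in 6 different genes, against 23.9% of all pooled regions and 44.3% of the IDR regions. In windows of the same size 500 bp to the right of the summits it was found in 10 of the 32 (31.2%) and 500 bp to the left in 6 (18.8%), where the shares over the pooled list were 20.5% and 20.7%. Each replicate gave 7 of 42 regions (16.7%), against 23.0% and 22.5% of all regions. Among the 6 regions ranked up to 1000 only that of lpr-3 had the word within 50 bp, against 35.9% of the 1000 strongest regions.

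Over the whole 356 bp of a region the share was higher than over the pooled list, but not beyond counting error. WGATAR was found anywhere in 24 of the 32 regions (75.0%, 57.9 to 86.7), an interval that covers the 59.2% of all pooled regions. Within 100 bp of the summit the share was 37.5%, against 41.0% of all pooled regions. Among the 6 regions ranked up to 1000 the word was found anywhere in 5 (83.3%), against 72.5% of the 1000 strongest. The exception among the 6 was noah-2. The word was centred 49.5 bp from the summit at nekl-2, where it ran over the edge of the 50 bp window, 65.5 bp at dpy-6, 105.5 bp at nas-36 and 127.5 bp at let-653. In the 2000 bp upstream of the 5′ end, a stretch that takes no account of summits, the genes had a median of 6 WGATAR words against 5 over all genes. noah-1 had the most, 12, more than 98.2% of genes, and noah-2 the fewest, 3, more than 16.7%.

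Other words were searched in the same windows, chosen with their frequency in the strong regions of these data known, except AGGTCA, the half-site of nuclear receptors. GAGAGA was found in 6 of the 32 pooled windows (18.8%, 8.89 to 35.3), against 6.42% of all pooled regions and 18.6% of IDR regions. These 6 windows belonged to let-653, noah-1, noah-2, dpy-6 and nekl-2, and all 6 were upstream of the gene. GACGCA was found at the strongest regions of lpr-3 and nekl-2 (6.25% of the 32), against 2.56% of all pooled regions and 11.4% of IDR regions. Its overlapping relative ACGCAG was found at nekl-2 alone (3.12%), against 2.51% of all pooled regions and 9.29% of IDR regions. GATAAG, which overlaps WGATAR, was found at lpr-3 and in the intronic region of noah-2 (6.25%), against 5.24% of all pooled regions. Its share of IDR regions was 18.9%. The half-site AGGTCA was found at dpy-6 alone (3.12%), against 2.75% of all pooled regions and 5.36% of IDR regions. The E-box word CACGTG was found in 0 of the 32, against 1.79% and 9.29%. For the words other than GAGAGA, the 95% Wilson interval over the 32 covers both shares, so these counts do not separate them. For GAGAGA the interval lies above the pooled share and covers the IDR share. Its 6 windows had pooled ranks of 95, 494, 601, 670, 1246 and 7235. Those of ranks 601 and 7235 were both at let-653, so the windows are not independent. No GAGAGA share was taken over strong or upstream pooled regions alone, so whether these genes differ from such regions was not tested. A match is a run of letters and not evidence of a bound factor.

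**Figure D5:**
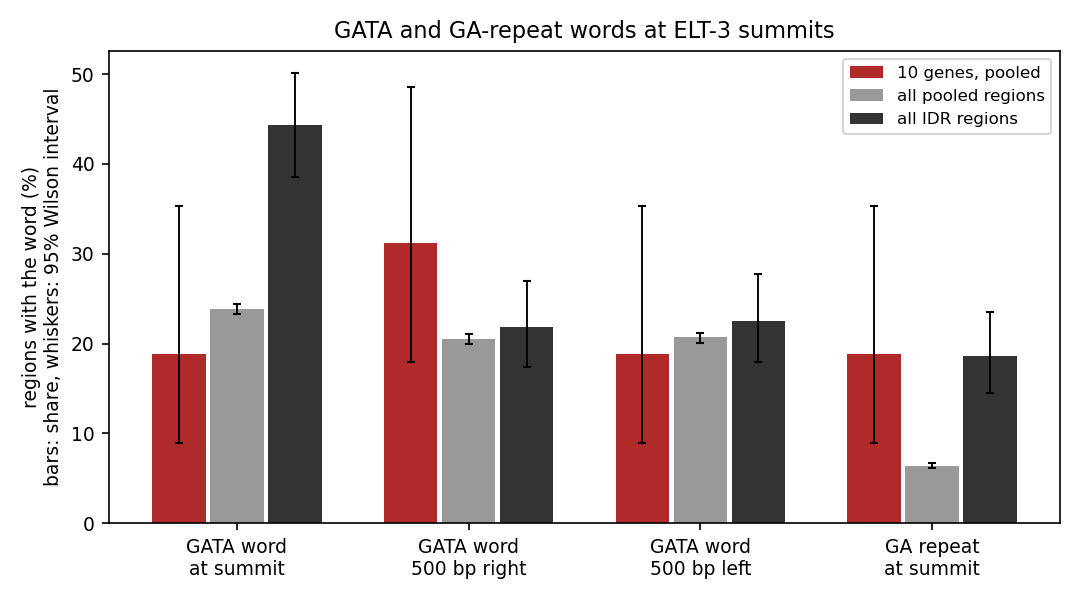
Share of regions (y axis, percent; bars with 95% Wilson intervals as whiskers) with the GATA word WGATAR within 50 bp of the summit, in windows 500 bp to either side, and with the GA repeat word GAGAGA at the summit. For the 10 genes the GATA share at the summit, 18.8%, is below the 23.9% of all pooled regions and the 44.3% of IDR regions, and the GA repeat share, 18.8%, is near the 18.6% of IDR regions.

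A wider list of 69 other matrix and moulting genes, drawn up from general knowledge, set these genes beside their families. It held further lipocalins, ZP-domain and leucine-rich repeat genes, the partners of the NEKL kinases and other genes of the moult. Of the 69, 1 (1.45%) had an IDR summit and 9 (13.0%) had one of the 1000 strongest pooled summits, against 1.36% and 4.50% of all genes. Window length was not matched in this comparison. Some of the strong summits of other moulting genes lay inside the gene, in coding exons 1503 and 10681 bp downstream and in an intron 2386 bp downstream, and others lay upstream. By class, 3 of 6 lipocalins, 1 of 37 ZP-domain genes, 0 of 4 leucine-rich repeat genes, 0 of 5 kinases and partners and 5 of 17 other moulting genes had one of the 1000 strongest. The 3 lipocalins are the neighbours of lpr-3 named above, and the ZP-domain gene is cutl-27, through the same region as let-653. The gene with the IDR summit was myrf-1 (WBGene00004134, II, minus strand, 10496987 to 10502541), a transcription regulator required for larval progression. Its region, II 10502519 to 10502874, ranked 225 with a signal of 49.2, its summit lay 156 bp upstream, and no WGATAR word lay within 50 bp of it. The best rank of myrf-1 was 259 in replicate 1 and 2099 in replicate 2.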

How the data were processed

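ChIP-seq peak lists of 2 biological replicates, 1 library each, were used on ce11. By the deposit's README, the authors made a relaxed list of peaks and background for each replicate and for both pooled, each against a control, and drew the IDR list from these. The signal of each region, its −log10 q-value and its summit position are as the authors deposited them, and ranks were taken from the signal. Not stated in the sources used here are the antibody's epitope, aligner, peak caller, IDR threshold, signal scaling and read depth. Lists on ce10 and the control were not used here.

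Regions were placed on the WBcel235 RefSeq genome with Ensembl release 115 gene models by summit, and 0 regions ran past a chromosome end of that assembly. Gene windows, motif windows and the match distance of 100 bp between summits are stated with the results, and 95% Wilson intervals cover counting error over regions. Python 3.11.15, pandas 2.3.3, numpy 2.4.6 and scipy 1.17.1 were used. Window assignment and motif search were tested on simulated data. With 1 group, no test was made and counts are set beside the same count over all genes. The rule for named genes took all 10 members, genes of the wider list with an IDR summit, and genes whose 5′ end is nearer to, or whose body holds, a member's region. The lpr-3 neighbours lpr-4, lpr-5 and lpr-6 were named outside this rule, after their values were seen. The members, lists, words and cut-offs were chosen with earlier results of these data known. Alternatives changed the window, assignment, list length, match distance, motif distance and replicate.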

Additional observations from a re-analysis of the deposited data

How the results depend on the processing

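The count of 2 genes with an IDR summit stayed at 2 with windows of 1000 or 5000 bp upstream, with any overlap and with the stronger 140 IDR regions. Under these settings the share of all genes ran from 0.671% to 2.16%. The count was also 2 with regions given to the gene of the nearest 5′ end, for which no share of all genes was taken. The IDR list draws on both replicates, so for 1 replicate alone its 280 strongest regions were counted instead, a different measure. These gave 1 gene in replicate 1 (1.33% of all genes) and 3 in replicate 2 (1.34%). The count of 10 genes with any pooled summit fell to 6 with only the 1000 strongest regions (4.50% of all genes). From either replicate alone it was 10, where 71.7% of all genes had a summit in replicate 1 and 72.5% in replicate 2. The count of 6 among the 1000 strongest was 4 to 7 under the other windows and list lengths, where 2.37% to 8.53% of all genes had such a summit. These settings were added after seeing the data, as were the values from 1 replicate, 2 from replicate 1 and 4 from replicate 2. The planned setting of 1000 strongest regions in place of 280 for each replicate gives these same counts and is no separate check. It gave 2 genes in replicate 1, where 4.61% of all genes had one, and 4 genes in replicate 2, where 4.66% did. The share of pooled regions held by both replicates rose from 40.6% to 75.0% with any overlap (43.7% of all pooled regions). WGATAR was found in 37.5% within 100 bp of the summit (41.0% of all pooled regions) and in 18.8% within 50 bp, where either replicate alone gave 16.7%. No paired analysis was possible because there is only 1 group. Replicate 2 alone had 0 regions with a −log10 q of 2 or more, the unknown depth leaves signals without an error, and 10 genes chosen by name allow counts and not a test.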
